A study of Mus musculus with 12 samples.

Results

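The genes examined here lie on mouse chromosome 16 at 10 Mb or beyond (GRCm38). Each was read by its brightest probe set, among those assigned to 1 gene symbol, and was kept where its mean log2(intensity + 1) over all 12 arrays passed a level minimum, which lies between the means of Gm15743, 6.94, and Bace2, 6.96. Of 18193 genes on the array, 598 lay on chromosome 16 and 547 of these began at 10 Mb or beyond. Of those 547, 323 were above the level minimum and 224 were not. A further 16 above the minimum were left out by name in the definition of the set, so 307 genes remained as members, from Nubp1 at 10.41 Mb to B230307C23Rik at 98.00 Mb. The members were thus chosen by position and selected on 1 measured value, the mean level over all arrays. The stretch itself was singled out with earlier results of these arrays known, so the counts below describe it and are no test that it stands apart.

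The study compared 4 mouse acute myeloid leukaemia cell lines derived from BXH-2 mice, a strain prone to myeloid leukaemia through a retrovirus. Ara-C (cytarabine) is a nucleoside analogue that stops DNA synthesis. The parents B117P and B140P are labelled sensitive to it, and each gave rise to 1 highly resistant line, B117H or B140H. The same treatment text, rising Ara-C concentrations, and the same growth text, passage without Ara-C, stand with all 12 samples, parental ones included, so the labels do not give separate handling of the parents. Total RNA was extracted, amplified and biotin-labelled, and each line was measured on 3 arrays lettered A, B and C. Each line is a single line, and nothing states whether its 3 arrays came from separate cultures. The question the design asks is which genes differ between a resistant line and its own parent.

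Mouse chromosome 16 carries stretches whose human counterparts lie on several chromosomes. Its far end holds genes found on human chromosome 21, including the receptors for interferons and the ETS-family transcription factors Erg and Ets2. A more proximal block corresponds to the human segment deleted in DiGeorge syndrome. Gain of human chromosome 21 is a recurrent change in human leukaemias. DNA copy number of these lines was not analysed here, and these arrays measure RNA only.

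Of 14 myeloid marker genes, all 14 were above the level minimum in B117P and in B117H, 9 in B140P and 10 in B140H. Itgam, Kit, Cd34 and Fcgr3 were at or below it in both B140 lines, and Lyz2 also in B140P. Ctsg was the highest of the 14 in the B140 lines, at 13.4 in B140P and 13.2 in B140H. The medians over the 14 were 8.37 and 7.16 there, beside 11.5 in B117P and 11.1 in B117H. Of 5 B-cell markers, 1 was above the minimum in the B117 lines and 4 in the B140 lines, where Cd79b had the highest level, 10.8 in B140P and 11.4 in B140H. T-cell, erythroid, fibroblast and epithelial markers had line means of 8.42 or below, with Epcam the highest. Of 5 T-cell markers, 3 were above the minimum in every line, with line means of 7.72 or below. Array medians of intensity lay between 118 and 131. Array B140H B stood apart, with a median deviation of 0.13 over all genes from each gene's mean over 12 arrays. The part of these differences in the results below was not tested.

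Upstream sequences of 5 members are shown because the results turn on their transcripts. They are the 150 bases before the start that the RefSeq promoter table uses on GRCm38.p6. For Erg that start lies 7 bases inside the outermost annotated end of the gene. Tmem50b (chr16:91597681-91597830, minus strand), Ifnar2 (chr16:91372633-91372782, plus strand), Mrps6 (chr16:92058186-92058335, plus strand) and Snx4 (chr16:33251306-33251455, plus strand) were lower in B117H than in B117P. Erg (chr16:95586594-95586743, minus strand) differed between the 2 lineages and is shown as a contrast. Capitals mark the GC box GGGCGG, a motif bound by Sp1-family factors, and the CCAAT box CCAAT, each on either strand and with overlapping matches counted.
Tmem50b: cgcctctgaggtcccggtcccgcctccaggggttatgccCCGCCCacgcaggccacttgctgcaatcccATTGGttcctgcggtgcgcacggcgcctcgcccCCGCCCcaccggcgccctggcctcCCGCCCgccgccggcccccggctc
Ifnar2: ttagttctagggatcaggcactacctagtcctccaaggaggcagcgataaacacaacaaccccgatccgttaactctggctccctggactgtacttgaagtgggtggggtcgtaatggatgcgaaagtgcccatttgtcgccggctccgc
Mrps6: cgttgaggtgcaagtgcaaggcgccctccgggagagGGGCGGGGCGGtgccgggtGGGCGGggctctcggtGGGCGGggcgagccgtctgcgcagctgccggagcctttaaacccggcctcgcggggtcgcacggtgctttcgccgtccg
Snx4: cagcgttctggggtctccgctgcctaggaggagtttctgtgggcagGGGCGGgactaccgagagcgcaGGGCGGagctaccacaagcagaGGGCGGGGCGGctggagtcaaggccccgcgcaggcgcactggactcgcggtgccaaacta
Erg: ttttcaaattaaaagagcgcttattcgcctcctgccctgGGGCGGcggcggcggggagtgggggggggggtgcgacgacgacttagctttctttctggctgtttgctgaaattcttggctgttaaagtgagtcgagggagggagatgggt
The window of Tmem50b held 3 GC boxes and 1 CCAAT box. Those of Mrps6 and Snx4 held 4 GC boxes each, that of Erg held 1, and that of Ifnar2 held none of either motif. GC content ran from 54.7% in the Ifnar2 window to 78% in the Tmem50b window. None of the 5 windows held the TATA box TATAAA or the ETS motif CCGGAA.

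Chromosome 16 genes were lower in the resistant line B117H than in its parent B117P along almost the whole stretch. The median member differed by -0.31 (log2), a 1.24-fold lower level, and 261 of 307 members (85.0%) lay below 0. Under limma with Benjamini-Hochberg adjustment over 45037 probe sets, 113 members were called lower and 5 higher at an adjusted p under 0.05. Among all 11321 genes above the level minimum, 6.90% were called lower and 6.65% higher, with a median of 0.01. The members' shares were 36.8% lower and 1.63% higher. Of the genes above the minimum, 36.5% on chromosome 13 and 33.5% on the whole of chromosome 16 were called lower. Most differences of members were modest in size, and only 9 of the members called lower and 3 of those called higher changed by 2-fold or more. All 3 arrays of B117H were below all 3 of B117P for 167 members and above for 9, beside 15.5% and 19.0% of all genes above the minimum.

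The pattern was visible on each array. The median deviation of the members from each gene's own mean over 12 arrays was 0.19, 0.20 and 0.22 on the 3 B117P arrays. It was -0.09, -0.10 and -0.09 in B117H, -0.08, -0.05 and -0.08 in B140P, and -0.03, 0.01 and -0.05 in B140H. The 3 B117P arrays were therefore apart from the other 9, none of which was above 0.01. B117P was the highest of the 4 lines for 197 members (64.2%), against 19.6% of all genes above the minimum. For 101 members (32.9%) all 3 B117P arrays were above all 9 others, and for 2 they were below, beside 5.39% and 5.93% of all genes above the minimum.

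**Figure D1:**
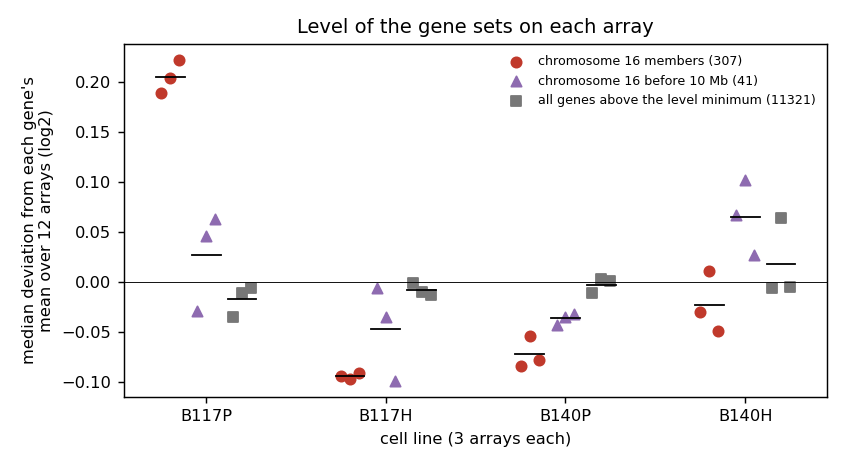
Median deviation (log2) from each gene's mean over 12 arrays, for the 307 chromosome 16 members, the 41 chromosome 16 genes before 10 Mb and all 11321 genes above the level minimum. Each point is 1 array and each bar the mean of a line's 3 arrays; the members sit at 0.19 to 0.22 in B117P and at or below 0.01 in the other lines.

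In order along the chromosome, every one of the 293 medians over 15 neighbouring members was below 0 in the B117 pair, from -0.55 to -0.03. By 10 Mb window, the medians were -0.27 at 10 to 20 Mb (80 members), -0.31 at 20 to 30 Mb (32), -0.45 at 30 to 40 Mb (68), -0.23 at 40 to 50 Mb (23) and -0.23 at 50 to 60 Mb (24). They were -0.33 at 60 to 70 Mb (6), -0.28 at 70 to 80 Mb (8), -0.32 at 80 to 90 Mb (16) and -0.28 beyond 90 Mb (50). The lowest running median, -0.55, was centred on Nrros at 32.14 Mb and ran from Pigz to Pcyt1a, and the 30 to 40 Mb window held 38 of the 113 members called lower. Window medians were thus below 0 in the gene-dense and the gene-poor parts of the stretch. The share called lower was uneven, with 38 of 68 at 30 to 40 Mb and 4 of 23 at 40 to 50 Mb. In the B140 pair the running medians lay between -0.14 and 0.21, with 236 of 293 above 0.

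**Figure D2:**
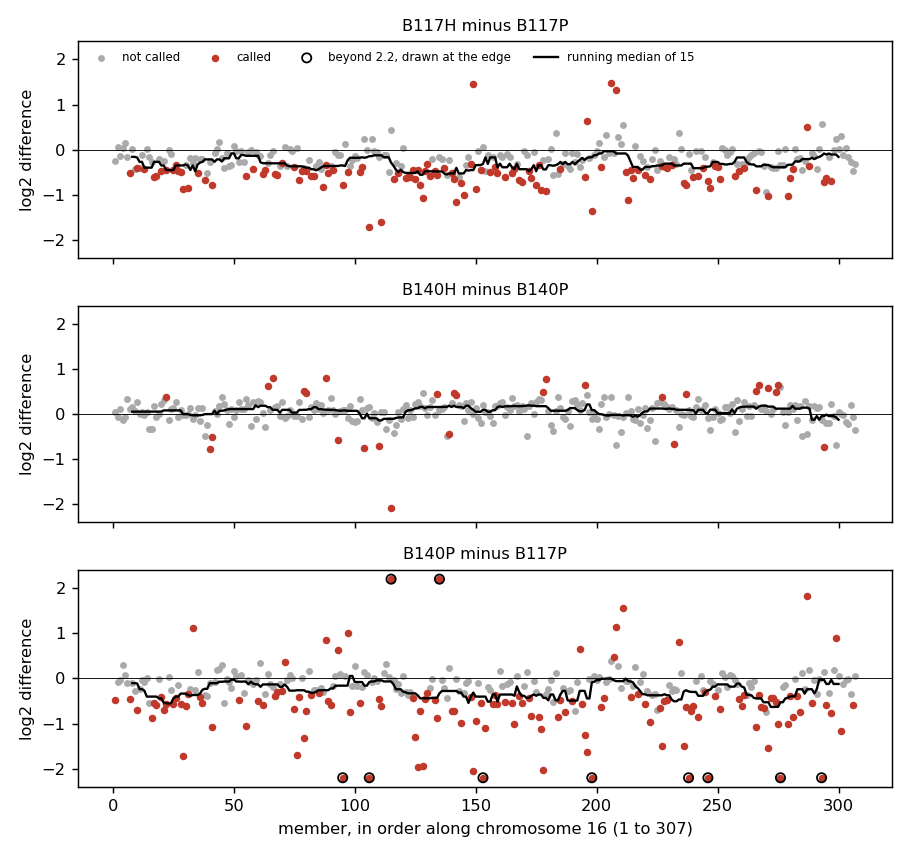
Log2 difference of each of the 307 members in order along chromosome 16 for B117H minus B117P, B140H minus B140P and B140P minus B117P. Red points are called at an adjusted p under 0.05, ringed points lie beyond 2.2 and are drawn at the edge, and the line is the running median of 15 members, which stays below 0 throughout the top panel.

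The start at 10 Mb did not mark the edge of the shift. Chromosome 16 genes above the minimum had a median difference of 0.00 at 0 to 4 Mb (8 genes) and of 0.01 at 4 to 8 Mb (27), but of -0.47 at 8 to 10 Mb, where 4 of 6 were called lower. Just before 10 Mb, Carhsp1, Usp7 and 1810013L24Rik differed by -0.09, -0.55 and -0.40. Just after it, Nubp1 (an iron-sulfur cluster assembly factor), Dexi and Clec16a (a regulator of mitophagy) differed by -0.25, 0.06 and -0.13. At the level minimum, the members just above it were Bace2 (6.96, differing by -0.11), 4930478L05Rik (6.96, -0.03) and Casr (6.97, -0.09), and the genes just below were Lipi (6.91, -0.12), Apod (6.92, -0.04) and Gm15743 (6.94, 0.05). The 223 genes of the stretch at or below the minimum and not left out by name include Lipi, Apod and Gm15743. They had a median of -0.04, with 3 called higher and 3 lower.

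**Figure D3:**
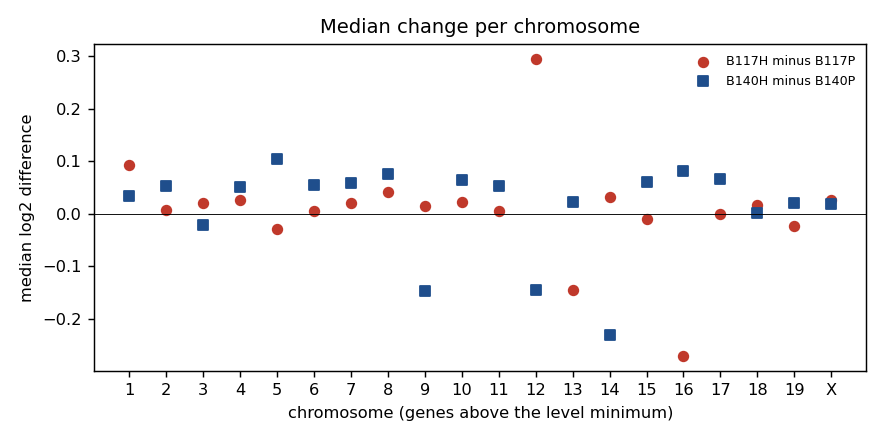
Median log2 difference over the genes above the level minimum of each chromosome, for B117H minus B117P (circles) and B140H minus B140P (squares). Chromosome 16 as a whole is at -0.27 in the B117 pair, below the other chromosomes shown, which range from -0.14 to 0.29, and at 0.08 in the B140 pair, where the others range from -0.23 to 0.10.

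Among single members, Ccdc50, which encodes a ubiquitin-binding regulator of NF-kappaB signalling, gave 11.29, 11.61 and 11.43 on the B117P arrays, and 9.76, 9.82 and 9.92 on the B117H arrays (log2(intensity + 1), here and below). It gave 10.76, 10.85 and 10.86 in B140P and 10.84, 10.84 and 10.96 in B140H. B117H was thus apart from all other lines, and Ccdc50 (chr16:27387065-27452218) fell by 1.61 ± 0.10 (SE, n = 3 arrays per line; adjusted p = 6.9e-07). Its next-brightest probe set gave -1.43 (adjusted p = 2.7e-06).

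Rtp4, an interferon-induced receptor-transport protein at chr16:23520219-23614222, had the largest fall among the brightest probe sets. It read 10.78, 10.85 and 11.08 in B117P, 8.96, 9.18 and 9.44 in B117H, a mean of 7.96 ± 0.12 (SD, n = 3) in B140P, and 8.91, 7.39 and 8.06 in B140H. The B117P arrays lay above all others, and the fall in B117H was 1.71 ± 0.28 (SE; adjusted p = 0.0018). The second probe set of Rtp4 was dim, with a mean of 5.27, and gave -0.31 (adjusted p = 0.34).

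Mrps6, a protein of the small mitochondrial ribosomal subunit at chr16:92058336-92112227, gave 10.58, 10.88 and 10.70 in B117P. The 3 other lines lay close together below it, at 9.72, 9.73 and 9.60 in B117H, 9.58, 9.82 and 9.72 in B140P and 9.80, 9.75 and 9.73 in B140H. The difference of B117H from B117P was -1.04 ± 0.10 (SE; adjusted p = 3.2e-05), and -0.84 on its second probe set (adjusted p = 0.00038). This single gene has the shape seen in the medians, with B117P high and 3 lines alike.

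Other large falls in B117H were those of Retnlb, a resistin-like secreted protein (-1.35 ± 0.18 SE, adjusted p = 0.0004), the transcript Zbtb11os1 (-1.12 ± 0.12, 5.8e-05), Bex6 (-1.06 ± 0.14, 0.0003) and Itgb5, the integrin beta 5 subunit (-1.01 ± 0.14, 0.00069). For Itgb5 a second probe set, with a mean of 8.99, gave a larger fall, -2.24 (adjusted p = 2.5e-07). Cebpd, a transcription factor of granulocyte and monocyte maturation, read 10.62, 10.67 and 10.49 in B117P and 9.68, 9.55 and 9.93 in B117H, with no overlap. It fell by 0.87 ± 0.12 (adjusted p = 0.00057). Its second probe set gave -0.26 (adjusted p = 0.52). N6amt1, a methyltransferase, fell by 0.85 ± 0.16 (adjusted p = 0.0059), and Samsn1, an adaptor that restrains signalling in blood cells, by 0.78 ± 0.11 (adjusted p = 0.00046). These calls on the brightest probe sets held when any 1 of the 12 arrays was left out, as did 63 of the 113 calls of lower members.

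Against this background 5 members rose in B117H, all of them among the dimmest 103 members by mean over all arrays. Mylk, myosin light chain kinase, read 7.23, 8.27 and 7.88 in B117P and 9.35, 9.20 and 9.20 in B117H, with means of 5.74 ± 0.17 in B140P and 5.73 ± 0.29 in B140H (SD, n = 3). The B140 means of Mylk lay below the level minimum. In B117H Mylk rose by 1.46 ± 0.22 (SE; adjusted p = 0.00093), and rose on its second probe set too (adjusted p = 0.00022). Alcam, a cell adhesion molecule, had a mean of 7.22 ± 0.23 (SD, n = 3) in B117P and read 8.63, 8.56 and 8.44 in B117H, and rose by 1.33 ± 0.25 (adjusted p = 0.005), with 1.38 on its second probe set (adjusted p = 0.0094). The groups did not overlap for either gene, and both calls held without any single array.

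The other 3 rises depended on single arrays. Dubr, a long noncoding RNA, rose by 1.48 ± 0.37 (SE; adjusted p = 0.029), and lost its call without B117P A, B117P C, B117H A or B117H C (adjusted p from 0.086 to 0.14). Cd96, an immunoglobulin-family receptor of lymphocytes and leukaemic stem cells, rose by 0.63 ± 0.17 (adjusted p = 0.035) and lost it without any array of B117P, without B117H B or without B117H C (0.054 to 0.16). Hlcs, the enzyme that attaches biotin to carboxylases, rose by 0.50 ± 0.13 (adjusted p = 0.039) and kept its call only when the array left out was B117P C, B140H B or B140H C (otherwise 0.050 to 0.14). The count of 5 risen members fell to 2 without B117P A, 3 without B117P B, 3 without B117P C, 3 without B117H B and 2 without B117H C.

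Among lists of 10 or more members, the median in the B117 pair ran from -0.14 for transcription factors to -0.44 for the interferon list and for protein turnover and traffic, and differences between lists were not tested. The counts of each list are to be read beside all 307 members. Of these, 113 (36.8%) were called lower and 5 (1.63%) higher, with a median of -0.31. The lists used here were drawn up with earlier results known and overlap, with 38 of 138 genes in more than 1 list, so none is independent evidence. Of 11 members concerned with translation, all were below 0, 7 fell, none rose and the median was -0.43. Yars2, the mitochondrial tyrosyl-tRNA synthetase, fell by 0.85 ± 0.10 (SE; adjusted p = 0.0002). The mitochondrial ribosomal proteins Mrpl40 and Mrpl39 fell by 0.66 ± 0.12 (0.0032) and 0.58 ± 0.10 (0.0036), and Parn, a poly(A)-specific ribonuclease, by 0.61 ± 0.09 (0.0008).

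Of 15 members encoding mitochondrial proteins, 7 fell and none rose, with a median of -0.34. Timmdc1, an assembly factor of respiratory complex I, fell by 0.78 ± 0.13 (SE; adjusted p = 0.0018), and Cox17, a copper chaperone of cytochrome c oxidase, by 0.64 ± 0.09 (adjusted p = 0.0007). Cox17 was read by a probe set that can match several transcripts. With such probe sets left out it was read by another, which gave -0.23 (adjusted p = 0.49). That probe set was dim, with a mean of 6.38, below the level minimum.

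Of 20 members in DNA replication, repair and chromatin, 9 fell and none rose, with a median of -0.38. Rnf168, a ubiquitin ligase of the DNA double-strand break response, read 10.69, 10.62 and 10.46 in B117P and 10.03, 9.96 and 10.06 in B117H, without overlap, a fall of 0.58 ± 0.09 (SE; adjusted p = 0.0017). Senp5, a SUMO protease, fell by 0.61 ± 0.10 (adjusted p = 0.0015). Of 20 members in protein turnover and vesicle traffic, all were below 0 and 10 fell, with a median of -0.44. Examples were the sorting nexin Snx4 (-0.64 ± 0.09, adjusted p = 0.0004), the proteasome assembly chaperone Psmg1 (-0.62 ± 0.11, 0.003) and the Rab GTPase-activating protein family member Tbc1d23 (-0.55 ± 0.10, 0.003).

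In the block corresponding to human 22q11, 11 of 27 members fell, none rose and the median was -0.35. Ydjc fell by 0.78 ± 0.13 (SE; adjusted p = 0.0025), Klhl22, a substrate adaptor of a cullin ubiquitin ligase, by 0.59 ± 0.11 (adjusted p = 0.0059), and Trmt2a, a tRNA methyltransferase, by 0.56 ± 0.08 (adjusted p = 0.00094). Zdhhc8, a palmitoyltransferase of the same block, differed by -0.02 ± 0.09 (adjusted p = 0.99).

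In the far block corresponding to human chromosome 21, 18 of 50 members fell, a share near that of all members, 1 rose and the median was -0.37. Besides Mrps6, these included Tmem50b, a small membrane protein (-1.04 ± 0.11 SE, adjusted p = 9.8e-05), Get1, which inserts tail-anchored proteins into the endoplasmic reticulum (-0.70 ± 0.09, 0.00038), and Bach1, a haem-sensing transcriptional repressor (-0.65 ± 0.11, 0.0025). The second probe set of Get1, with a mean of 7.68, gave -0.16 (adjusted p = 0.75). The second probe set of Bach1 was dimmer, with a mean of 7.23, and gave -0.67 (adjusted p = 0.28). Erg, an ETS factor of haematopoietic stem cells that lies in the same block, differed by 0.58 ± 0.16, short of the threshold (adjusted p = 0.052). The 3 B117H arrays of Erg, 11.75, 11.66 and 11.57, were all above the B117P arrays, 11.17, 11.02 and 11.06.

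The interferon receptor genes lie side by side in this block. Ifnar2, a subunit of the type I interferon receptor, read 11.10, 11.10 and 11.13 in B117P, and 10.21, 10.21 and 10.26 in B117H. It read 9.95, 10.01 and 10.14 in B140P and 10.51, 10.61 and 10.52 in B140H. The 4 lines did not overlap, and the fall in B117H was 0.88 ± 0.08 (SE; adjusted p = 2.7e-05). Its second probe set gave a smaller difference, -0.40 (adjusted p = 0.069). Ifnar1, the other type I subunit, differed by -0.37 ± 0.11 (adjusted p = 0.056), Ifngr2, a subunit of the interferon gamma receptor, by -0.94 ± 0.31 (adjusted p = 0.11), and Il10rb, shared by several cytokine receptors, by -0.03 ± 0.09 (adjusted p = 0.98). For Ifngr2 a second probe set, with a mean of 8.81, gave -0.55 and was called (adjusted p = 0.0036).

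Of 10 members of the interferon list, 5 fell and none rose, with a median of -0.44. They were Rtp4, Ifnar2, Litaf, a regulator of endosomal traffic and inflammatory genes (-0.51 ± 0.10 SE, adjusted p = 0.0071), and the interferon-induced ADP-ribosyltransferase family members Parp9 (-0.39 ± 0.09, 0.022) and Parp14 (-0.49 ± 0.12, 0.025). The calls of Parp9 and Parp14 were each lost without B117P B, B117P C, B117H A or B117H B, with adjusted p from 0.061 to 0.10 for Parp9 and from 0.056 to 0.11 for Parp14. Dtx3l, the partner of Parp9, differed by -0.16 ± 0.09 (adjusted p = 0.51), and Socs1, an inhibitor of cytokine signalling, by 0.03 ± 0.13 (adjusted p = 0.99).

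Of 12 blood-cell surface and signalling members, 3 fell and 2, Alcam and Cd96, rose, with a median of -0.24. Those that fell were Nrros, a transmembrane protein of myeloid cells that holds latent TGF-beta (-0.78 ± 0.11 SE, adjusted p = 0.00059), and the kinases Gsk3b (-0.48 ± 0.10, 0.008) and Pak2 (-0.44 ± 0.09, 0.0072). Of 13 transcription factors, 3 fell (Cebpd, Bach1 and Ets2) and none rose, with a median of -0.14. Ets2 fell by 0.72 ± 0.16 (adjusted p = 0.014), and its call was lost without B117P A, B117P B or B117H A (adjusted p from 0.053 to 0.058). A second probe set of Ets2, which can match several transcripts, gave -0.47 and was called (adjusted p = 0.022). Of the stefin and granule list, Retnlb alone was a member.

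In the second lineage the median of the members lay near that of all genes. B140H and B140P differed by a median of 0.09 over the members, beside 0.04 over all genes above the minimum. Here 19 members were called higher and 9 lower, 6.19% and 2.93%, beside 3.97% and 5.64% of all genes above the minimum. Of the 28 calls, 8 higher and 5 lower held without any single array. With each array centred on its median the split was 12 higher and 14 lower. The replicate letter, which pairs the arrays of these 2 lines, gave 17 members lower when fitted as a block. The count of 19 rises fell to 11, 10 and 8 when array A, B or C of B140P was left out, and to 11 without B140H A.

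The clearest rises in B140H were in Camk2n2, an inhibitor of CaM kinase II, Zdhhc8 and B4galt4, a galactosyltransferase. Camk2n2 read 9.20, 9.09 and 9.09 in B140P and 10.03, 9.93 and 9.80 in B140H, a rise of 0.79 ± 0.09 (SE; adjusted p = 0.00018). Zdhhc8 read 9.61, 9.66 and 9.70 in B140P and 10.35, 10.55 and 10.44 in B140H, also 0.79 ± 0.09 (adjusted p = 0.00022), while all 6 B117 arrays lay between 9.76 and 9.93. Il10rb rose by 0.64 ± 0.09 (adjusted p = 0.0014), from a mean of 9.90 ± 0.12 (SD, n = 3) to 10.60, 10.43 and 10.59. None of the 3 overlapped between B140P and B140H.

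The largest fall in B140H was that of Fam43a. It read 9.61, 9.96 and 10.61 in B140P but 8.02, 7.77 and 8.15 in B140H, close to the 7.26 to 8.23 of the B117 arrays, and fell by 2.08 ± 0.24 (SE; adjusted p = 0.00025). Ccdc116 fell by 0.78 ± 0.12 (adjusted p = 0.0018), Il1rap, the accessory chain of the interleukin 1 receptor, by 0.72 ± 0.12 (adjusted p = 0.0029), and Chmp2b, a subunit of the membrane-remodelling ESCRT-III complex, by 0.67 ± 0.12 (adjusted p = 0.0059). The second probe set of Il1rap, near background with a mean of 6.55, gave 0.00 (adjusted p = 1). St6gal1, a sialyltransferase, fell by 0.75 ± 0.17 (adjusted p = 0.023). Its call was lost without B140P A, B140P C or any array of B140H (adjusted p from 0.052 to 0.10), and its second probe set gave -0.17 (adjusted p = 0.54).

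The difference between the changes of the 2 lineages, tested in the same fit, had a median of 0.37 over the members and 0.02 over all genes above the minimum. For 98 members (31.9%) the change in B140H was called above that in B117H, and for 6 (1.95%) below it, beside 7.15% and 8.07% of all genes above the minimum. Of these calls 61 and 4 held without any single array. Largest among the named members were Rtp4 (1.87 ± 0.39 SE, adjusted p = 0.0099), B4galt4 (1.69 ± 0.18, 8.3e-05), Ccdc50 (1.67 ± 0.14, 1.6e-05) and Tmem50b (1.61 ± 0.16, 6.6e-05). In the other direction were Fam43a (-2.51 ± 0.34, 0.00062), Alcam (-2.01 ± 0.35, 0.0034) and Mylk (-1.46 ± 0.31, 0.0098). Mylk had means below the level minimum in both B140 lines and was a member only through its B117 level. Its value here therefore mainly restates its rise in B117H.

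**Figure D4:**
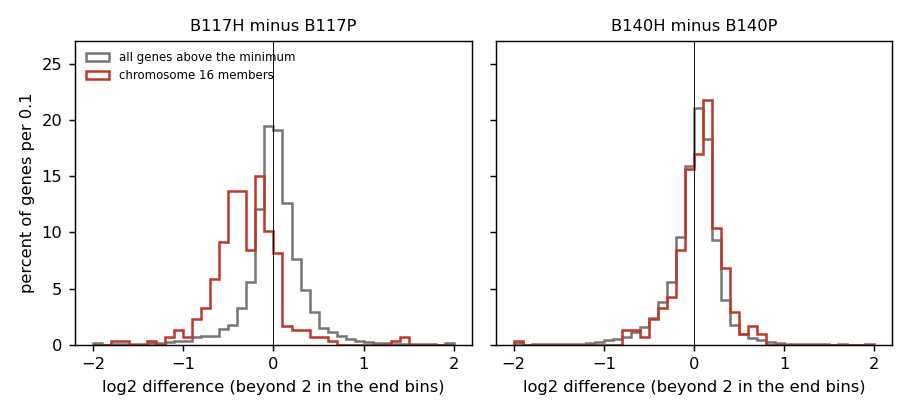
Percent of genes per 0.1 of log2 difference for the 307 chromosome 16 members (red) and all 11321 genes above the level minimum (grey), in B117H minus B117P and in B140H minus B140P. The members are shifted to a median of -0.31 in the first panel and lie close to the other genes in the second, at 0.09 against 0.04.

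Calls in both resistant lines numbered 14 members. Of these 12 were lower in B117H and higher in B140H, 2 were lower in both and none was higher in both, beside 60, 46 and 50 of the 11321 genes above the minimum. None was higher in B117H and lower in B140H, beside 98 of those genes, their largest class. Among the 12, B4galt4, Ifnar2, Plcxd2 and Snx4 kept both calls without any single array. B4galt4 read 9.42, 8.98 and 9.20 in B117P and 8.30, 8.28 and 8.29 in B117H, but 8.90, 8.97 and 8.67 in B140P and 9.80, 9.56 and 9.52 in B140H. The parents lay next to each other, and the resistant lines were on opposite sides of them, at -0.91 ± 0.12 (SE; adjusted p = 0.0005) and 0.78 ± 0.12 (adjusted p = 0.0024).

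Snx4 (chr16:33251456-33299562) read 11.47, 11.45 and 11.34 in B117P, 10.77, 10.82 and 10.74 in B117H, 10.65, 10.67 and 10.77 in B140P, and 11.26, 11.13 and 11.08 in B140H. It changed by -0.64 in B117H and by 0.46 ± 0.09 in B140H (SE; adjusted p = 0.0072), so that B140H lay between B117P and the other lines. Its second probe set was dim, with a mean of 7.19, and gave -0.12 and 0.15 (adjusted p = 0.77 and 0.56). Plcxd2, a phospholipase C-like protein, changed by -0.60 ± 0.11 (adjusted p = 0.0053) and 0.65 ± 0.11 (adjusted p = 0.0045).

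Tmem50b (chr16:91574508-91597680) read 10.68, 10.58 and 10.49 in B117P and 9.61, 9.51 and 9.53 in B117H. In the other lineage it read 9.30, 8.92 and 8.89 in B140P and 9.68, 9.66 and 9.49 in B140H. The rise in B140H was 0.57 ± 0.11 (SE; adjusted p = 0.011), and its call was lost without B140P B (adjusted p = 0.065) or B140P C (adjusted p = 0.063). Ifnar2 rose in B140H by 0.51 ± 0.08 (adjusted p = 0.0026), but its second probe set gave -0.08 (adjusted p = 0.82), so the 2 probe sets of this gene differed in the B140 lineage.

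The 2 members lower in both resistant lines were Ydjc and Ets2. Ydjc differed by -0.52 ± 0.13 in B140H (SE; adjusted p = 0.044), and kept that call only when the array left out was B117P A, B117P B, B117H A, B117H C or B140P C (otherwise adjusted p from 0.065 to 0.18). Ets2, an ETS-family factor, read 10.01, 10.36 and 10.60 in B140P and 9.28, 9.73 and 9.75 in B140H. It fell by 0.74 ± 0.16 (adjusted p = 0.017), with the call lost without B140P B, B140P C or B140H A (adjusted p from 0.065 to 0.083). A second probe set of Ets2, with a mean of 7.67, was also called lower in B140H, by -0.44 (adjusted p = 0.041). That probe set can match several transcripts.

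Set against each other, the 2 parental lines also differed over this stretch. B140P was lower than B117P by a median of -0.26, with 123 members called lower and 14 higher, 40.1% and 4.56%, beside 16.8% and 17.9% of all genes above the minimum. The share called lower on the whole of chromosome 16 was 37.9%, beside 38.9% on chromosome 4 and 36.6% on chromosome 1. The comparison of the parents shares the B117P arrays with that of B117H and B117P, so the 2 are not independent. The resistant lines, which share no array with the parents, differed by a median of 0.09, with 55 members higher in B140H and 41 lower, 17.9% and 13.4%, beside 19.2% and 19.4% of all genes above the minimum. Medians over all genes above the minimum were 0.02 and 0.05 in these 2 comparisons.

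The widest gaps between the lineages were in single genes. App, the amyloid precursor protein (chr16:84952666-85175255), read 12.79, 12.57 and 12.76 in B117P and 12.04, 11.93 and 12.07 in B117H. On the B140 arrays it read 5.54, 5.49 and 6.18 in B140P and 5.36, 5.54 and 6.05 in B140H. These B140 readings all lay below the level minimum, so App was a member only through its B117 level. The difference was -6.97 ± 0.19 between the parents (SE; adjusted p = 4.4e-11) and -6.36 ± 0.19 between the resistant lines (adjusted p = 7.8e-11), and -5.06 and -4.14 on the second probe set.

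Erg (chr16:95359169-95586600) lay at 11.02 to 11.75 on all 6 B117 arrays and at 5.35 to 6.09 on all 6 B140 arrays. The B140 readings were below the level minimum, so Erg too was a member only through its B117 level. It differed by -5.22 ± 0.16 in B140P against B117P (SE; adjusted p = 1.2e-10) and by -5.92 ± 0.16 in B140H against B117H (adjusted p = 3.9e-11). The second probe set of Erg was dim, with a mean of 7.09, and gave -0.93 and -0.99. Nrip1, a corepressor of nuclear receptors, differed by -2.79 ± 0.12 between the parents (adjusted p = 2.1e-09), and Pdia5, a protein disulfide isomerase, by -2.56 ± 0.23 (adjusted p = 3.8e-06).

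Fewer members were higher in B140P. Tnk2, a non-receptor tyrosine kinase, read 8.34, 8.36 and 8.64 in B117P, 8.07, 8.24 and 8.58 in B117H, 11.12, 11.43 and 11.59 in B140P, and 11.39, 11.28 and 11.77 in B140H. It was higher by 2.93 ± 0.17 between the parents (SE; adjusted p = 4e-08) and by 3.18 ± 0.17 between the resistant lines (adjusted p = 1.7e-08), with no overlap. Fam43a, Hlcs, Fgd4, which activates the GTPase Cdc42, and Tmem41a, a membrane protein of lipid transport, were higher in B140P by 2.54 ± 0.24, 1.84 ± 0.13, 1.12 ± 0.25 and 1.02 ± 0.11 (adjusted p from 3.6e-07 to 0.0063). Btla, an inhibitory receptor of lymphocytes, was higher by 0.65 ± 0.11 (adjusted p = 0.0011). Markers of myeloid and of B cells also differed between the lineages, as given above, and their part in these differences was not tested.

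**Figure D5:**
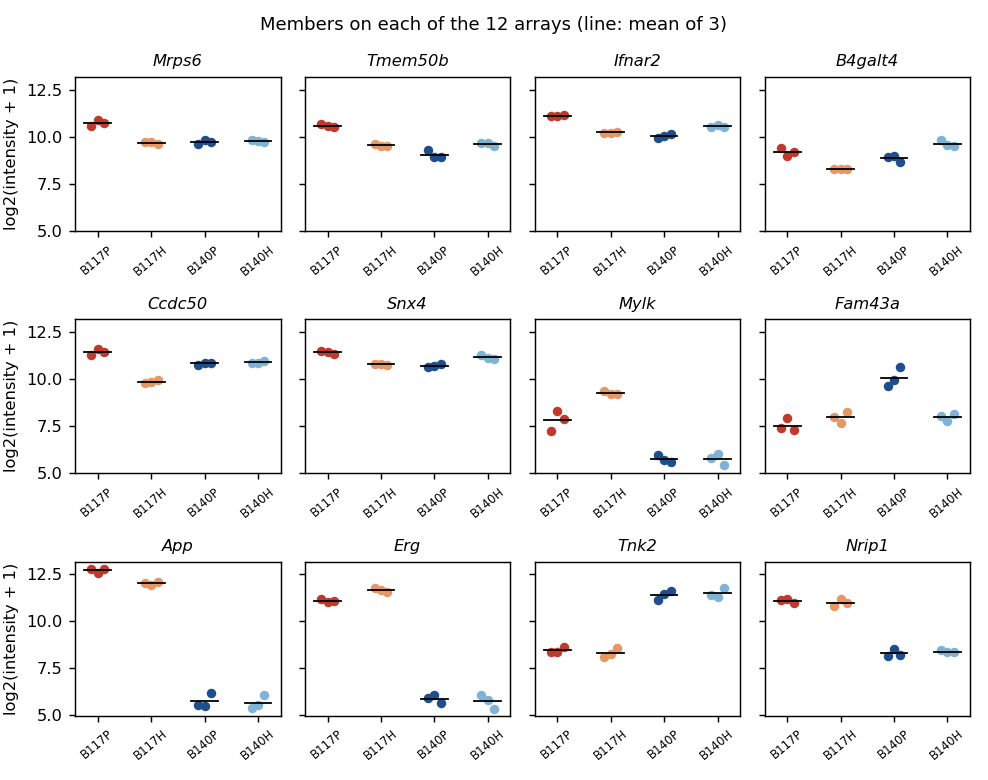
Log2(intensity + 1) of 12 members on each of the 12 arrays, by line, with the mean of 3 arrays as a bar. Mrps6 is high in B117P alone, B4galt4 and Snx4 move in opposite directions in the 2 resistant lines, and App and Erg lie above 11 in the B117 lines and below 6.2 in the B140 lines.

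The shift in the B117 pair was read most clearly where the signal was strong. The members with a mean level up to 8.82 had a median of -0.06, with 16 of 103 called lower. The 102 members of middle level had -0.38 (42 lower) and the 102 brightest, from 10.4 upward, had -0.43 (55 lower). All genes above the minimum, split likewise into 3 equal groups by level, had medians of -0.01, 0.04 and 0.02. A second probe set was present for 214 members, and these second probe sets had a median of -0.18, with 41 called lower and 3 higher. Of the 72 of these genes whose first probe set was called lower, 69 had a second one below 0, and 24 had one called lower. Among all genes above the minimum, 6929 had a second probe set, with 330 called lower and 322 higher. Of the 478 of these genes whose first probe set was called lower, 449 had a second one below 0 and 208 one called lower. Besides the genes given above, second probe sets above the minimum were not called for Yars2 (-0.78), Gsk3b (-0.63), Plcxd2 (-0.61), Rnf168 (-0.55), Litaf (-0.39) and Tbc1d23 (-0.31), with adjusted p from 0.055 to 0.71.

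Promoter windows of 300 bases, from 250 before to 50 after the start, were found for 268 members. Motifs and GC content were read only from the 250 bases before the start. A GC box stood there for 56.0% of these members, against 58.6% of 9168 genes above the minimum and 33.0% of all 27025 windows. The CCAAT box stood in 32.1%, 36.1% and 34.5%, the TATA box in 6.72%, 6.41% and 13.0%, and the ETS motif in 26.1%, 22.9% and 12.3% of these 3 sets. Among the 96 members with a window that were called lower in B117H, 65.6% held a GC box, against 50.6% of the other 172, and their median GC content was 64% against 59.6%. These are counts of letters in a window, and the members called lower are also the brighter ones, as given above.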

How the data were processed

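Total RNA of 4 mouse cell lines was measured on 12 one-colour arrays, 3 per line, grouped by the titles. The authors deposited 1 table of intensity values per probe set. Per the submitters' processing notes these come from RMA (background correction, quantile normalization and probe-set summary). Its version is not given in the sources used here. The linear scale was read from the values, which run from 7.65 to 36675. An array has no sequencing depth, and the number of arrays limits the precision.

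Of 45101 probe sets, 45037 entered the fit, after removal of 64 array controls. Per the platform annotation, 34945 had 1 gene symbol, 932 several and 9160 none. RefSeq (GRCm38.p6) placed 18145 of 18193 genes and gave the promoter windows. Values were tested as log2(value + 1), so differences between the dimmest values are slightly understated. limma 3.58.1 (R 4.3.3) fitted 1 coefficient per line over all 12 arrays, with Benjamini-Hochberg adjustment and calls at 0.05, two-sided. SE is the moderated standard error. P-values rest on the spread among arrays of a line, which may be technical. The fit was tested on simulated data. Summaries used Python 3.11.15 with pandas 2.3.3, and figures matplotlib 3.10.9.

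Members and gene lists were chosen with earlier results of these data known. Genes named were drawn, per comparison, from the 10 largest rises and falls among called members whose arrays do not overlap, list members, members nearest each limit, members called in both resistant lines and the leader of each 10 Mb window; not every gene that meets this rule is named. Predicted and Riken genes were left out of the ranking. Letters were taken to pair arrays where every correlation of same-letter deviations from the line means was over 0.1. This held for B140P with B140H (0.59, 0.36 and 0.56), B117P with B140P (0.50, 0.13 and 0.41) and B117H with B140H (0.45, 0.35 and 0.53), not for B117P with B117H (0.56, 0.03 and 0.39). Alternatives were the letter as a block, other normalization, pseudocount, prior, weights, probe-set choice and level minimum, and arrays left out.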

Additional observations from a re-analysis of the deposited data

Results flagged for a closer look

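The change from parent to resistant line differed between the 2 lineages, by limma's test of the difference itself, for 39 of the members named. Values are the change in B140H minus the change in B117H (log2). The change was higher in B140H for Rtp4 (1.87), B4galt4 (1.69), Ccdc50 (1.67), Tmem50b (1.61), Bex6 (1.54), Zbtb11os1 (1.51), Ifnar2 (1.39), Plcxd2 (1.25), Retnlb (1.24), Samsn1 (1.23), Camk2n2 (1.14) and Snx4 (1.10). It was also higher for Mrps6 (1.09), Timmdc1 (1.05), Nrros (0.96), Mrpl40 (0.94), Get1 (0.94), Klhl22 (0.92), Mrpl39 (0.92), Cox17 (0.87), Cebpd (0.85), Yars2 (0.85), Itgb5 (0.84) and Zdhhc8 (0.81). Smaller differences of this direction were those of Parn (0.78), Trmt2a (0.75), Rnf168 (0.74), Senp5 (0.69), Tbc1d23 (0.69), Il10rb (0.67), Gsk3b (0.65), Litaf (0.61), Parp9 (0.56) and Ifnar1 (0.53). The change was lower in B140H for Fam43a (-2.51), Alcam (-2.01), Mylk (-1.46), St6gal1 (-0.98) and Hlcs (-0.93). Mylk had means below the level minimum in both B140 lines, so its value mainly restates its rise in B117H. On a second probe set above the level minimum, the difference was 2.42 for Itgb5 (adjusted p = 4.2e-06). It was also called for Ccdc50 (1.51), Plcxd2 (1.43), Mrps6 (0.96), Mrpl39 (0.89), Trmt2a (0.72), Parn (0.52) and Alcam (-1.91). It was not called for Gsk3b (0.84), Rnf168 (0.58), Yars2 (0.52), Zdhhc8 (0.49), Litaf (0.47), Senp5 (0.45) or Tbc1d23 (0.37). Nor was it called for Ifnar2 (0.31), Snx4 (0.27), Cebpd (0.16), Get1 (-0.07) or St6gal1 (-0.22). B117P enters each of these differences, and was the highest of the 4 lines for 197 of the 307 members.

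A few of these calls depended on 1 array. Ifnar1 kept its call only without B140P C, and otherwise had adjusted p from 0.053 to 0.12. Itgb5 lost it without B117H A, B117H B, B140H B or B140P A (0.051 to 0.060), and Litaf without B117H B or B140P B (0.052 and 0.053). Parp9 lost it without B117H A, B117H B, B117P C, B140P B or B140P C (0.053 to 0.056). St6gal1 lost it without B117H B, B117H C, B140H A, B140P A or B140P C (0.051 to 0.067).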

How the results depend on the processing

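No named call reversed under any alternative run for it, 24 for a pair of lines and 23 for the difference of changes. Of 184 named calls, 95 held in all of these and 89 were lost in at least 1; the cause was not tested. With the replicate letter as a block, 8 members were higher in B117H than in B117P and 17 lower in B140H than in B140P; the block moved no other count by over 1.5 times. Centring each array gave 12 higher and 14 lower in B140H, with medians of 0.041 there, 0.060 for B140H against B117H and 0.32 for the difference of changes. Fitting only the 2 lines compared gave 9 higher in B140H, by its construction on fewer arrays, and array weights gave its median as 0.050. Averaging a gene's probe sets gave medians of -0.25 for the B117 pair, -0.21 for the parents and 0.32 for the difference of changes. With members above a mean of 8 (237), 0 were higher in B117H, and the medians were -0.38, -0.34 and 0.51, with 2 members lower in the difference. The 5 higher in B117H were dim by their mean over all arrays, but Mylk and Alcam read above 8 on every B117H array. With no level minimum (530), 8 were higher in B117H, the medians were -0.12, -0.10 and 0.20, and 10 were lower in the difference.

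Leaving out 1 array, or 1 letter from every line, gave these ranges. B117 pair: 2 to 6 higher, 33 to 119 lower, median -0.32 to -0.30. B140 pair: 2 to 20 higher, 2 to 12 lower, 0.041 to 0.11. Parents: 11 to 14 higher, 79 to 132 lower, -0.29 to -0.25. Resistant lines: 26 to 56 higher, 27 to 40 lower, 0.045 to 0.12. Difference of changes: 24 to 90 higher, 2 to 7 lower, 0.35 to 0.39. The 33 lower members of the B117 pair came from leaving out letter C of every line. An array measures dim genes near background poorly, which limits what the dimmest members can show.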
